A study of Mus musculus with 9 samples.

Results

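Mouse glioblastoma cells grown with brain stromal cells in a printable fibrin gel, called 3D bioink, were set against tumours that the same glioma line formed in mouse brains. GL261 is a glioma line of C57BL/6 mice that grows as a tumour in immunocompetent animals of that strain, so a tumour formed from it holds host immune cells. The comparison takes 6 of the 9 RNA-seq libraries of the series, 3 of whole tumour and 3 of the 3D bioink, chosen by their labels. The 3 other libraries come from the same cell mixture grown in 2D, and they enter only where a difference from the tumour in bioink was tested against the difference in 2D. A gene was tested when its mean over the 6 libraries was at least 10, which 13954 of the 20778 gene symbols in the deposited table reached.

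For the tumours, 50000 mCherry-labelled GL261 cells were implanted in the striatum of male C57BL/6 mice aged 7 weeks (5 mice are given), and the tumours were resected on day 14. Both cultures were penta-cultures, in which GL261 cells at 1000000 per ml were mixed with freshly isolated astrocytes, microglia, pericytes and endothelial cells. The labels give the mixing ratio as 1:1:2:0.1:0.1. The stromal cells came from brains of male C57BL/6 mice aged 6 to 10 weeks, and were taken with beads against CD11b for microglia, CD31 for endothelium, and AN2 and CD144 for pericytes. What remained after the beads served as astrocytes, so that fraction was not selected for an astrocyte protein. The bioink was digested with collagenase II at 600 U/ml for 3 h and passed through a 70 µm mesh before RNA was taken. The sample records used here give that step for neither the 2D culture nor the tumours, and its part in the differences was not tested. All groups share the glioma line and the strain. The labels do not say whether the 3 libraries of a group are separate mice or separate cultures, so every p-value below measures only how far these libraries scatter, and that scatter may be technical. In bulk RNA, fewer cells of a type and less RNA per cell cannot be told apart.

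As background, a glioblastoma in the brain is made of tumour cells together with resident microglia, macrophages that enter from blood, vessels and reactive astrocytes. Its phagocytes signal through adaptor proteins with tyrosine activation motifs, present antigen and respond to interferon. Fibrin is the protein of the blood clot: cells bind it through integrins, dissolve it through the plasminogen activators, and replace it with matrix of their own.

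The values were treated as normalized counts rounded to whole numbers. Differences are given on the scale of log2(value + 1), as bioink minus tumour with the standard error of the fit. A gene was called when limma's adjusted p was at or below 0.05 over all genes tested. By that rule 8363 of the 13954 genes (59.9%) passed. The bioink was above the tumour for 3491 of them (25% of genes tested) and below it for 4872 (34.9%). At least 2-fold differences made up 4038 of the calls, and 315 genes were called at least 8-fold higher and 570 at least 8-fold lower. Since over 1 in 2 genes passed, each gene group below is read against 25% and 34.9%, beside the median over all genes of -0.11. The libraries' sums were 13548461 to 13683978 in the bioink and 16320090 to 16388074 in the tumours, and the sequencing depth behind them is unknown. Correlations of log values ran from 0.928 to 0.964 within the bioink and from 0.940 to 0.943 within the tumours, against 0.748 to 0.796 between the groups. Bioink replicate 1 stood apart from the other two, and without it 8250 genes were called.

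**Figure D1:**
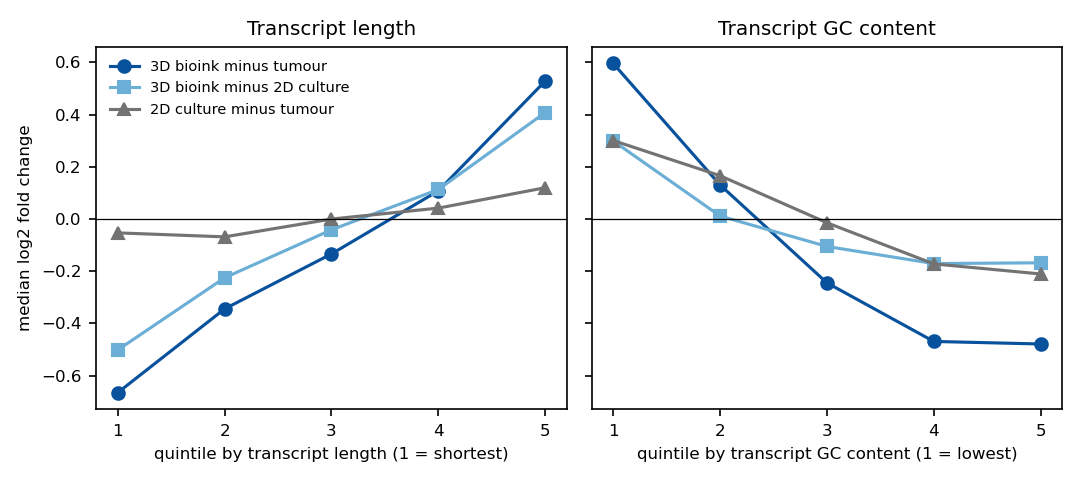
Median log2 fold change (vertical axis) of genes split into quintiles by transcript length (left) and by transcript GC content (right), for the 3 contrasts named in the key. The contrast of 3D bioink with tumour climbs from -0.67 in the shortest quintile to 0.53 in the longest, and drops from 0.60 in the lowest GC quintile to -0.48 in the highest.

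Over all tested genes with a known transcript, the difference between bioink and tumour ran with transcript length and base composition. The trend was not split by gene function. Genes were placed by their longest protein-coding transcript in GENCODE vM21, which 13834 of the 13954 had. In the shortest quintile (312 to 1830 bases) the median difference was -0.67 and in the longest (5205 to 123179 bases) it was 0.53. By GC content, the median was 0.60 in the lowest quintile (32.2% to 44.3%) and -0.48 in the highest (56.0% to 72.8%). The slope on each property was present within levels of the other: among the genes of lowest GC the median rose from -0.16 in the shortest to 0.94 in the longest, and among the shortest genes it fell from -0.16 at the lowest GC to -0.76 at the highest. Each bioink library showed it against the tumour mean, with medians of -0.65, -0.66 and -0.61 for the shortest quintile and 0.52, 0.55 and 0.54 for the longest, while single tumour libraries differed from the other tumours by -0.011 to 0.026. The plot of the median by length and GC quintile shows that the 2D culture shared the GC slope against the tumour (0.30 to -0.21) and hardly the length slope (-0.05 to 0.12). Bioink against 2D had the length slope again, from -0.50 to 0.41. The cause was not tested. As an alternative chosen after seeing the data, a smooth surface over length and GC was taken off each library. It left 6883 genes called, 2603 higher and 4280 lower, and its values are set beside each group below whose median it turned or whose count of higher or lower genes it moved by 3 or more. The counts of the other groups below moved by at most 2 genes.

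The genes named below follow a rule stated with the processing, with these exceptions, which were chosen after their values were seen: Ahr, Bmp2, Bmpr2, Cd44, Clock, Cp, Egfr, Fbn1, Fgfr1, Fth1, Has2, Has3, Id1, Id3, Ifit1, Igf1r, Igfbp3, Il11, Il6, Insig1, Isg15, Itga5, Itgav, Itgb1, Itgb5, Klf9, Lifr, Mcm2, Nfkbia, Per3, Phgdh, Ptgs1, Ptgs2, Serpine2, Slc7a11, Socs3, Stat3, Syk, Tfrc, Tgfb1, Thbd, Tiparp, Tmem119, Tnfaip3, Top2a, Vcan, Col1a1, H2-Eb1, H2-Ob and Pecam1.

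Among the genes with a mean of at least 100 in both groups, the largest rise was that of Lcn2. Lcn2 (RefSeq, GRCm38.p6, chr2:32384637-32387739) encodes lipocalin 2, a secreted protein that binds iron-loading siderophores and marks reactive astrocytes and the acute phase. It stood at 171, 186 and 206 in the tumours and at 13951, 11108 and 12465 in the bioink, a log2 difference of 6.05 ± 0.11 (adjusted p = 3.65e-08). The 2D culture stood below both, at 30, 20 and 19. Spp1, osteopontin, a secreted ligand of integrins and CD44, went from 1098, 1074 and 1109 to 23703, 25751 and 26429, which is 23.1-fold, and was at 2127 to 2220 in 2D. Ace, the enzyme that forms angiotensin II, was at 147, 131 and 95 in the tumours and at 1754, 1811 and 1915 in the bioink, and Krt8, a keratin of simple epithelia, at 395, 478 and 417 against 5545, 6575 and 5848. Both were below the tumour in 2D. The other large rises were matrix genes: the proteoglycan-cutting protease Adamts4 (3.78 ± 0.12), the collagen VI chain Col6a2 (4.47 ± 0.15), the basement membrane linker Nid1 (4.46 ± 0.11) and the collagen IV chain Col4a1, together with the actin-severing gene Gsn and the RNA helicase Ddx6. Of these, 3 rest on uneven tumour libraries. Col4a1 was at 300, 442 and 0 in the tumours and Ddx6 at 969, 1 and 52. Col4a1 lost its call when any 1 bioink library was left out (adjusted p = 0.0724 to 0.0841) or with eBayes fitted without a trend, and its difference of 6.04 became 7.32, 7.60 and 3.21 without tumour replicates 1, 2 and 3. Ddx6 lost its call without any 1 bioink library, without tumour replicate 3, with eBayes fitted without a trend or with the length and GC trend removed, and ranged from 3.62 without tumour replicate 2 to 8.08 without tumour replicate 1. Gsn was at 140, 41 and 179 and moved from 4.64 to 4.00 without tumour replicate 2.

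Among the same genes, with a mean of at least 100 in both groups, the largest falls were mostly those of phagocyte and interferon-inducible genes. Genes nearer 0 in the bioink, described further on, fell by more. Lyz2, the lysozyme of macrophages and microglia, fell from 16530, 15992 and 16108 to 125, 129 and 163 (-6.87 ± 0.11). Apoe, the lipid carrier of glial cells and macrophages, fell from 74332, 73036 and 71885 to 499, 1091 and 845 (-6.56 ± 0.25). Cfb, complement factor B, Cxcl2, a neutrophil chemokine, and Lcp1, the plastin of leukocytes, differed by -5.30, -5.08 and -4.90, and the matrix protein Tgfbi by -4.55. The interferon-inducible GTPase Igtp stood at 28206, 28032 and 28447 in the tumours and at 987, 981 and 958 in the bioink, and the immunoproteasome subunit Psmb9 at 2339, 2399 and 2331 against 98, 100 and 110. Tgtp1 and Tgtp2 differed by -5.03 and -4.89, and as near-identical copies they may share reads, so their separate values are uncertain.

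Some genes were listed at 0 in every library of one group, for which no fold is given. There were 5 at 0 in all tumours and at 100 or more in each bioink library. They were Grem1 (chr2:113748675-113758648), a secreted antagonist of bone morphogenetic proteins, at 292, 285 and 316, Map9, a microtubule-associated protein, at 281, 181 and 240, Zfp385a, a zinc finger protein, at 223, 212 and 148, Folh1, a folate hydrolase, at 155, 118 and 145, and Prl2c2, proliferin, at 127, 114 and 122. Map9 was also at 0 in all 2D libraries, while Prl2c2 was higher in 2D, at 268, 237 and 318. Near-identical copies of Prl2c2 exist in the mouse genome, so its value is uncertain. In the other direction there were 17 genes. The 5 with the highest tumour values were Fcrls (1043, 1021 and 972), Tyrobp (733, 550 and 480), Csf2ra (579, 547 and 590), Hcar2 (321, 397 and 451) and Cd300c2 (406, 361 and 324), all known from myeloid cells.

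**Figure D2:**
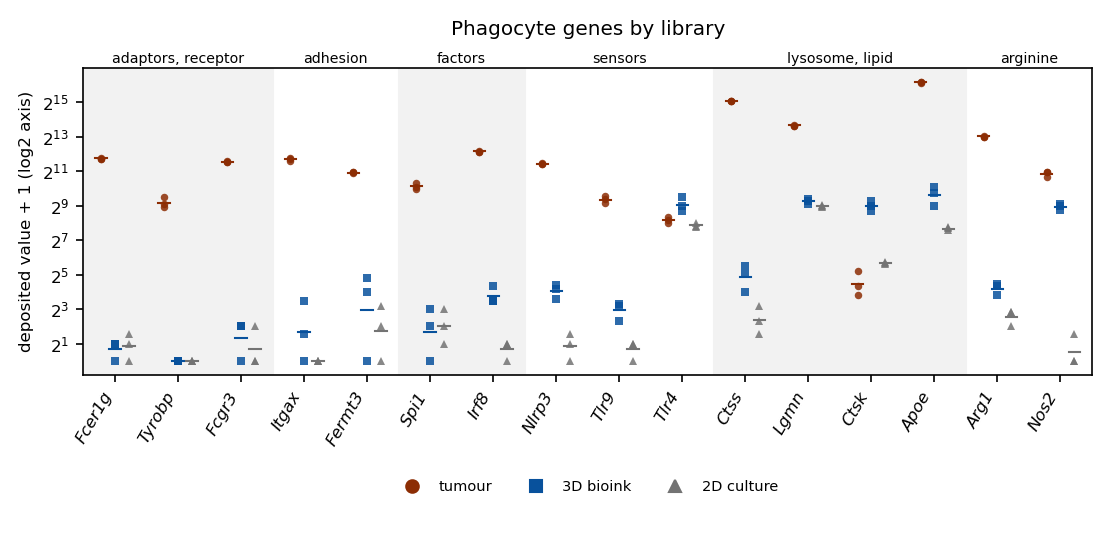
Deposited value plus 1 (vertical axis, log2 scale) of phagocyte genes in each library, with the 3 tumour, 3 bioink and 3 2D culture libraries as points and their mean log value as a bar. Tlr4 and Ctsk are the genes of the plot whose bioink libraries lie above the tumours. Nos2 is the gene whose bioink libraries, at 432 to 548, lie far above the 2D libraries, at 0 to 2.

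Signalling through activation-motif adaptors was where the bioink and the tumour lay farthest apart. All 23 tested members of that list were called lower (34.9% of all genes were), with a median of -7.05. Fcer1g, the shared gamma chain of Fc receptors, stood at 3314, 3542 and 3386 in the tumours and at 0, 1 and 1 in the bioink. Tyrobp, the adaptor of Trem2 and its relatives, was at 0 in all bioink libraries. The Fc receptor gene Fcgr3 went from 3029, 2955 and 2955 to 0, 3 and 3, and its difference of -10.21 became -9.54 without bioink replicate 1. Syk, the kinase these adaptors recruit, fell less, from 1705, 1671 and 1841 to 244, 212 and 195 (-3.00 ± 0.11). Read against 2D, neither Fcer1g (-0.19, adjusted p = 0.75) nor Fcgr3 (0.67, adjusted p = 0.43) differed beyond the spread, at values of 0 to 3 in all 6 culture libraries. Of 13773 genes in that second contrast, 59.2% were called.

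The other phagocyte groups lay the same way. All 14 leukocyte adhesion genes tested were lower, with a median of -6.05, among them the integrin Itgax (3395, 3531 and 3044 against 0, 10 and 2) and Fermt3, which activates leukocyte integrins (1948, 1869 and 1999 against 0, 15 and 27). Of 14 transcription factors of blood lineages, 13 were lower and none higher, including Spi1, the factor PU.1 of myeloid cells (1104, 995 and 1249 against 0, 7 and 3), and Irf8 (4649, 4486 and 4429 against 19, 10 and 10). The differences of Itgax, Fermt3 and Spi1 rest on how low a bioink library was: Itgax was -10.01 and ran from -9.17 without bioink replicate 1 to -10.90 without replicate 2, Fermt3 was -7.99 and ran from -6.52 without replicate 1 to -8.92 without replicate 3, and Spi1 was -8.45 and ran from -7.62 without replicate 1 to -9.12 without replicate 2. Among 22 genes of Toll-like receptors and the inflammasome, 15 were lower and 1 was higher. Nlrp3, the inflammasome sensor, fell from 2711, 2813 and 2777 to 20, 17 and 11, and Tlr9, the sensor of unmethylated DNA, fell by 6.41 on the log2 scale. The exception was Tlr4, the endotoxin receptor, at 282, 322 and 252 in the tumours and 725, 404 and 499 in the bioink (0.89 ± 0.22, adjusted p = 0.00885). Tlr4 lost its call when the length and GC trend was removed.

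Lysosomal cathepsins and hydrolases were mostly lower. Of 28 genes, 17 were lower (60.7%) and 3 higher (10.7%). Ctss, the cathepsin of antigen-presenting cells, went from 34086, 34029 and 34283 to 15, 44 and 32 (-10.21 ± 0.33), and Lgmn, legumain, from 12504, 12681 and 13334 to 618, 666 and 550 (-4.39 ± 0.08). Ctsk, the collagen-cutting cathepsin of osteoclasts and fibroblasts, rose from 19, 36 and 13 to 420, 501 and 618 (4.54 ± 0.37). The vacuolar proton pump, which acidifies lysosomes in all cells, had 2 of 16 subunits higher and 6 lower, with a median of -0.10. That median turned positive under each other scaling, from 0.015 by median of ratios to 0.16 with equal totals. With the length and GC trend removed 4 were higher and 2 lower and the median turned to 0.09. The subunit genes Atp6v1a (0.55 ± 0.08) and Atp6v1g1 (-0.68 ± 0.07) both lost their call. Of 18 genes of lipid handling in phagocytes, 9 were lower and 4 higher.

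Arginine metabolism, which separates phagocyte states, was more often lower than higher. Of 22 genes of arginine and polyamine metabolism 5 were higher (22.7%) and 12 lower (54.5%). Arg1, arginase, fell from 8360, 8162 and 8231 to 19, 13 and 21 (-8.81 ± 0.18). Ass1, which rebuilds arginine from citrulline, fell from 1442, 1349 and 1288 to 37, 51 and 64. Nos2, the inducible nitric oxide synthase, was lower by less, at 1995, 1598 and 1967 against 432, 507 and 548 (-1.90 ± 0.13). In 2D it was at 0, 0 and 2, and the test of bioink against 2D gave 8.42 (adjusted p = 1.2e-07). The arginine transporter gene Slc7a2 rose from 551, 622 and 630 to 3294, 3469 and 3372 (2.49 ± 0.08) and was below the tumour in 2D.

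These falls went along with lower marker genes of several immune cell types, though not of B cells. Over the 14 microglia markers, the summed value was 30498 to 33033 in the tumours and 1581 to 1672 in the bioink, and 13 were called lower. Tmem119 was at 140, 93 and 75 in the bioink, while Fcrls was at 0. Over 12 monocyte and macrophage markers the sum was 24958 to 25697 against 534 to 620, with 10 of 11 tested lower and 1 of the 12 at 0 in the bioink. Over 11 T and NK cell markers it was 1066 to 1196 against 289 to 308, with 5 of 8 tested lower and 3 at 0. Over 7 neutrophil markers the sum was 792 to 938 against 75 to 135, with 1 of 2 tested lower. For 5 B cell markers the ranges overlapped, at 149 to 281 against 128 to 170, and neither of the 2 tested was called. The bioink sums lay above those of the 2D culture for microglia (936 to 1048) and macrophages (235 to 273). The part of cell number in the falls was not tested.

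Interferon-inducible and MHC class II genes fell without exception in the lists used, 24 of 24 and 9 of 9, with medians of -2.49 and -5.37. Their promoters are shown because the genes moved together and carry known elements. RefSeq windows of 250 bases before the transcription start (GRCm38.p6) were at hand for 10909 of the genes tested. The interferon element, searched as AAANNGAAA on both strands, was found before at least 1 start of 8.91% of these genes and of 13 of 21 genes of the interferon list. CCAAT on both strands was found for 40.4% of these genes and for all 7 class II genes with a window, although 1 of the 2 windows of H2-DMa lacked it. A match of letters is a description and not a site of binding. In the stretches below, which run 5′ to 3′ on the gene's strand, capitals mark the matches, and overlapping matches run together.
Oasl1: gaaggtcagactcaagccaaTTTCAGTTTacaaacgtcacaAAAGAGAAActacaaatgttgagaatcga
Isg15: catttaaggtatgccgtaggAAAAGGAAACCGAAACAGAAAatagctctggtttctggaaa
Ifit1: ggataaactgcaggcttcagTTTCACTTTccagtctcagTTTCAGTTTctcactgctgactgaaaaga
H2-Aa: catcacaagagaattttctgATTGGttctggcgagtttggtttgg
H2-Eb1: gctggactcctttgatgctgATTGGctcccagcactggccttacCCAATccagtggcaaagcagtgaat
H2-Ob: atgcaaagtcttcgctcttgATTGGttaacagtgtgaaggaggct
The stretch of Oasl1 lies on the plus strand at chr5:114923043-114923112, that of Isg15 on the minus strand at chr4:156200855-156200915 and that of Ifit1 on the plus strand at chr19:34640765-34640832. The class II stretches lie at chr17:34287847-34287891 on the minus strand for H2-Aa, and at chr17:34305788-34305856 and chr17:34238828-34238872 on the plus strand for H2-Eb1 and H2-Ob.

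Genes with these elements fell by very different amounts. Oasl1, an interferon-inducible regulator of Irf7 translation, went from 1085, 919 and 937 to 28, 56 and 37 (-4.62 ± 0.26). Isg15, the ubiquitin-like modifier, went from 2488, 2408 and 2508 to 521, 504 and 443 (-2.34 ± 0.08), and was above the bioink in 2D at 1311, 1189 and 1175. Ifit1, which binds viral RNA caps, moved least of the 3 genes, from 1694, 1568 and 1729 to 1140, 1221 and 1213 (-0.48 ± 0.07, adjusted p = 0.00075). The chemokine gene Cxcl9, a target of interferon gamma, had no match in its window, and fell from 1516, 1556 and 1666 to 7, 11 and 26. H2-Aa, a class II alpha chain, went from 12574, 12663 and 12015 to 2, 11 and 1, and its difference of -11.54 became -12.31 without bioink replicate 2. H2-Eb1 was at 150, 146 and 124 in the tumours and at 0 in all bioink libraries, and H2-Ob at 35, 38 and 52 against 3, 4 and 0. The difference of H2-Ob was -3.95, and -3.23 without bioink replicate 3.

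**Figure D3:**
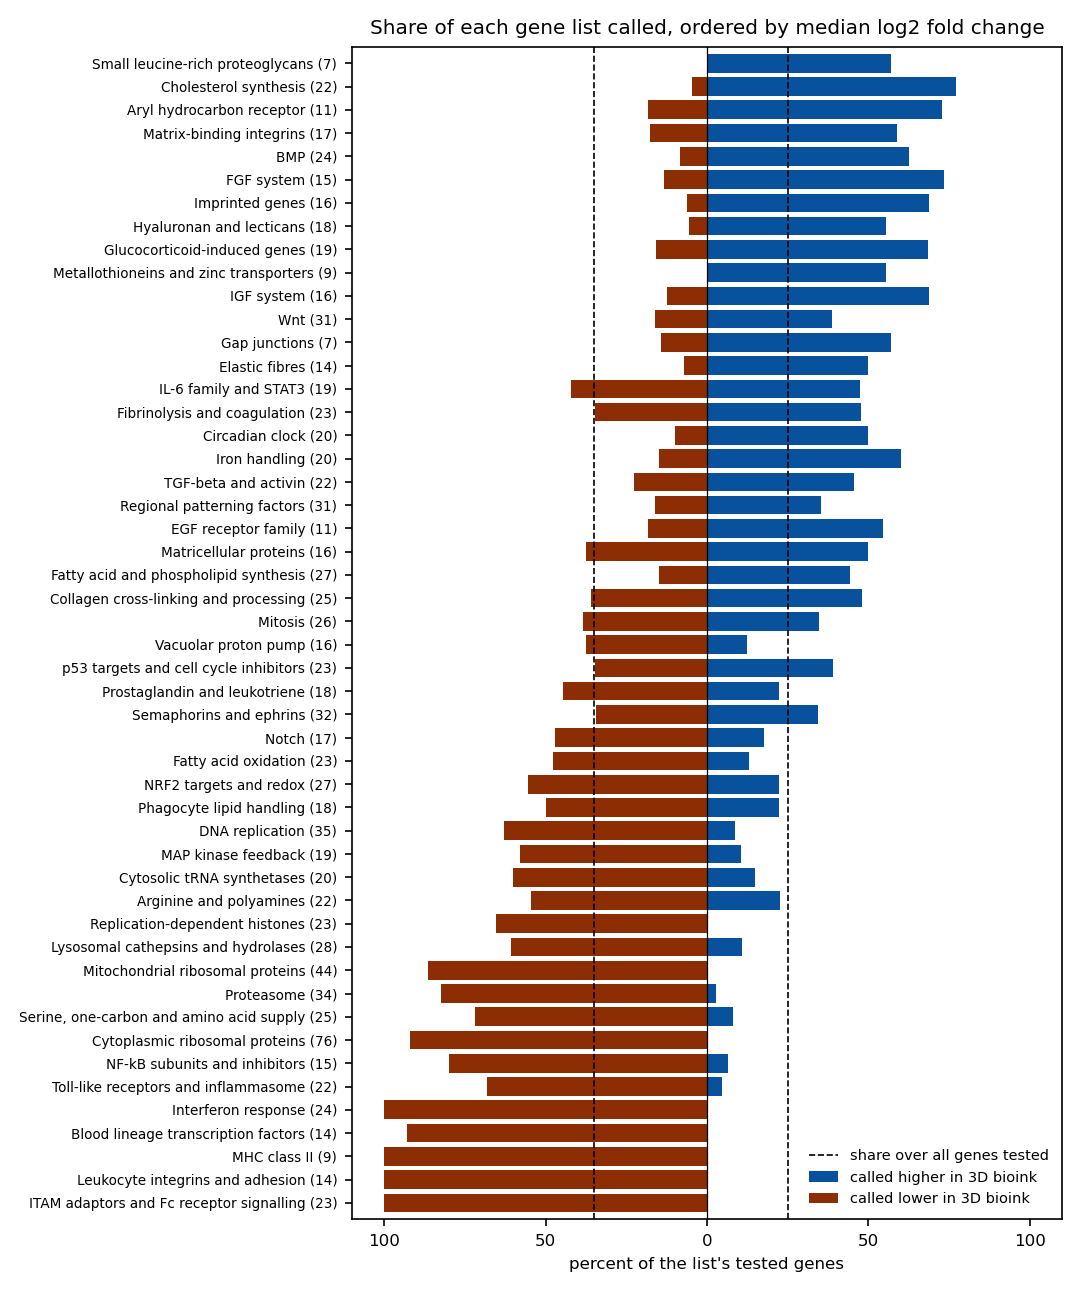
Percent of each list's tested genes (number in brackets) called higher in 3D bioink, to the right, or lower, to the left, ordered by the list's median log2 fold change. Dashed lines give the shares over all genes tested, 25% higher and 34.9% lower. The immune lists at the bottom reach 100% lower, and cholesterol synthesis, with 17 of 22 genes higher, lies near the top.

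Among the genes of fibrinolysis and coagulation, the counts differed by role, without a test of that difference. Of 8 activators and proteases tested, 6 were lower and 1 was higher, and of 6 inhibitors 5 were higher and none lower. The activators and proteases mix clot lysis with clotting, and their largest fall was that of the clotting factor gene F7 (-6.67). Of 9 receptors 5 were higher and 2 lower. Over the whole list 11 of 23 were higher and 8 lower, and 8 and 8 with the length and GC trend removed, where the median of 0.50 became 0.26. Plau, the urokinase that cells carry on their surface, fell from 1303, 1048 and 1168 to 120, 85 and 88 (-3.58 ± 0.17), and its receptor gene Plaur from 1443, 1490 and 1363 to 260, 473 and 358 (-2.02 ± 0.20). Plat, the tissue plasminogen activator, differed little, at 1457, 1365 and 1452 against 1069, 1208 and 1156 (-0.32 ± 0.08, adjusted p = 0.00814), and lost its call under each other scaling and with the length and GC trend removed. Serpine2, an inhibitor of thrombin and urokinase, rose from 232, 234 and 316 to 1308, 1098 and 1160, and Serpinb2, an intracellular urokinase inhibitor, from 0, 0 and 5 to 155, 123 and 146. The difference of Serpinb2 was 6.28, and 7.15 without tumour replicate 3. F3, tissue factor, which starts clotting, was slightly lower (-0.47 ± 0.06, and not called at -0.18 under quantile normalization) and stood at 6006, 6166 and 6092 in 2D. Thbd, thrombomodulin, rose from 129, 82 and 76 to 707, 694 and 670. All 3 fibrinogen chain genes were listed at 0 in the 6 libraries.

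**Figure D4:**
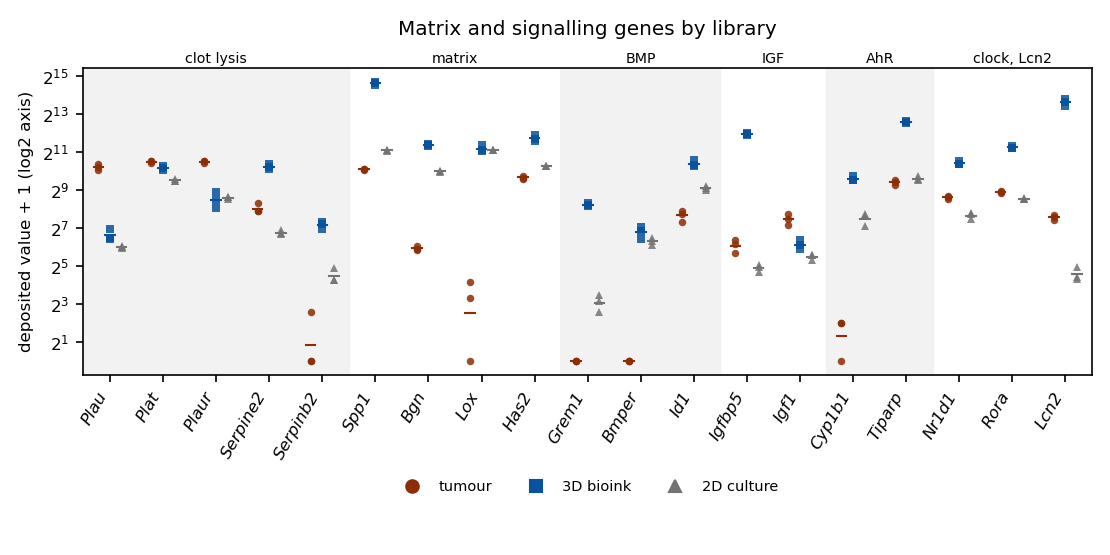
Deposited value plus 1 (vertical axis, log2 scale) of clot-dissolving, matrix and signalling genes in each library, with the 3 tumour, 3 bioink and 3 2D culture libraries as points and their mean log value as a bar. Plau and Plaur lie below the tumours in the bioink and Serpine2 above, while Igfbp5, Nr1d1, Rora and Lcn2 are higher than the tumour in the bioink and lower in 2D.

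Several matrix groups had more genes higher than lower in the bioink. Among small leucine-rich proteoglycans, which sit on collagen fibrils, 4 of 7 were higher and none lower. Bgn, biglycan, rose from 64, 58 and 57 to 2681, 2548 and 2712 (5.45 ± 0.11), and Dcn, decorin, from 1, 0 and 11 to 329, 405 and 389. Dcn was at 3, 4 and 0 in 2D, and its difference from the tumour of 7.02 ran from 6.25 without tumour replicate 2 to 8.05 without tumour replicate 3. All 3 hyaluronan synthase genes rose: Has1 from 33, 16 and 29 to 188, 88 and 101, Has2 from 841, 769 and 803 to 3836, 3053 and 3291, and Has3 from 32, 56 and 65 to 257, 182 and 188. Over the whole hyaluronan and lectican list 10 of 18 were higher and 1 lower. The hyaluronan receptor gene Cd44 rose by 0.80 ± 0.05 and the lectican Vcan by 1.95 ± 0.08, but the call of Cd44 was lost with the length and GC trend removed (0.10, adjusted p = 0.106). The exception was Tnr, a tenascin of perineuronal nets, at 261, 193 and 227 against 6, 0 and 0, whose difference of -6.89 was -7.82 without bioink replicate 1.

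Genes that build and bind fibres changed in both directions. In the elastic fibre list 7 of 14 were higher and 1 lower, and 8 and 3 with the length and GC trend removed. Fbn1, fibrillin 1, rose from 628, 660 and 835 to 2737, 2784 and 2702, and Fbln2, fibulin 2, from 4, 8 and 20 to 1978, 2554 and 2444, though Fbln2 was higher still in 2D at 8348, 8535 and 8932. Fn1, fibronectin, was at 5227, 5134 and 5347 in the tumours and 5061, 4473 and 3902 in the bioink, a difference that did not pass the test (-0.23 ± 0.09, adjusted p = 0.0609), and its sign turned to 0.10 under quantile normalization and 0.03 with totals made equal. It was called lower without bioink replicate 1 (-0.33), with arrayWeights (-0.38) and with the length and GC trend removed (-0.51). Emilin1, an elastic microfibril protein, was lower (-0.70 ± 0.07). Of 25 genes of collagen folding, trimming and cross-linking, 12 were higher and 9 lower. Lox, lysyl oxidase, stood at 0, 9 and 17 in the tumours and at 2638, 2147 and 2195 in the bioink. Its difference of 8.68 became 7.43 without tumour replicate 1 and 9.52 without tumour replicate 3. Pcolce, which speeds the trimming of procollagen, fell from 4729, 4811 and 4685 to 1819, 1866 and 1882. Of 17 matrix-binding integrins, 10 were higher and 3 lower. Itgb1, the common beta chain, rose from 5081, 4665 and 4768 to 12343, 12269 and 12886, and its fibronectin and vitronectin partners Itga5 and Itgav by 1.34 ± 0.05 and 1.38 ± 0.06. Itgb5 fell by 2.14 on the log2 scale, and Itga9 fell from 555, 591 and 555 to 26, 39 and 30. The integrin median of 1.36 shrank to 0.54 when the length and GC trend was removed, with 8 higher and 3 lower. Among 16 matricellular proteins 8 were higher and 6 lower, with Spp1 among the rises. The largest rise was that of Smoc2, a calcium-binding matrix protein, from 0, 3 and 0 to 132, 46 and 53 (5.45 ± 0.81, and 6.12 without tumour replicate 2). The largest fall was that of Thbs1, thrombospondin 1, from 6434, 6168 and 6008 to 1927, 2197 and 2384. The length and GC check is void for the matricellular list, since only 12 of its 16 tested genes had a transcript length.

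Summed markers of fibroblasts and of simple epithelia were higher in the bioink, with exceptions in both lists. The sum over 12 fibroblast and meningeal markers was 15151 to 15689 in the tumours and 27197 to 28624 in the bioink, with 7 of 11 tested higher and 1 lower. Col1a1, the collagen I chain, alone rose from 656, 675 and 654 to 7367, 7854 and 7125, while Col3a1, the collagen III chain, was lower, at 12680, 11957 and 11907 against 8730, 8790 and 8091 (-0.51 ± 0.06, and not called at -0.07 under quantile normalization). The sum over 8 mesothelial and epithelial markers was 713 to 783 against 6331 to 7236 and came mostly from Krt8. In that list 3 of 5 tested were higher and 1 was lower, Cdh1, the cadherin of epithelial junctions, which fell from 213, 172 and 167 to 7, 8 and 4 (-4.69 ± 0.38). For 14 pericyte and mural markers the sum was lower in the bioink, at 2945 to 3111 against 4552 to 5000. Single members went both ways, with 4 of 11 tested higher, such as Pdgfrb (1.80), and 3 lower, such as Acta2 (-3.01). For 13 endothelial markers the ranges of the sum overlapped, at 5592 to 7882 against 5706 to 6044, and the sum came mostly from Pecam1. Of 11 endothelial markers tested, 2 were higher, including Cdh5 (1.97), and 3 lower, including Slco1a4 (-4.78) and Cldn5 (-2.75). Pecam1, an endothelial junction gene, was at 4101, 4210 and 4477 in the tumours and 5407, 3162 and 3030 in the bioink, with bioink replicate 1 the highest. It was not called (-0.19 ± 0.20), and was called lower without that library (-0.46, adjusted p = 0.000494). The 12 astrocyte markers summed to 5959 to 6386 in the tumours and 9248 to 9531 in the bioink. Of 11 tested 6 were higher and 2 lower, from Sox9 (3.98) to Slc1a3 (-1.30). The part of cell make-up in the matrix differences was not tested.

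Bone morphogenetic protein (BMP) signalling is known to act through receptor serine kinases and Smad proteins, and the Id genes are its classic targets. Of 24 genes tested, 15 were higher and 2 lower in the bioink, with a median of 1.17. All 6 targets rose, among them Id1, from 160, 236 and 213 to 1212, 1248 and 1531 (2.72 ± 0.17), and Id3, from 1036, 678 and 730 to 1754, 1887 and 2007 (1.23 ± 0.16). The ligand gene Bmp2 rose from 179, 157 and 158 to 366, 329 and 327, and was at 21, 23 and 18 in 2D. The receptor gene Bmpr2 rose by 1.85 ± 0.11. Acvrl1, the BMP9 receptor of endothelium, fell from 569, 623 and 696 to 80, 170 and 120. Of 6 antagonists tested 4 rose, with Grem1 and Bmper at 0 in all tumours and at 292, 285 and 316 and at 132, 115 and 84 in the bioink. The group held when the length and GC trend was removed, with 13 higher and 2 lower and a median of 1.09.

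The related TGF-beta and activin group was less one-sided, with 10 of 22 higher and 5 lower. Its median of 0.35 became 0.04 with the length and GC trend removed, and the count 8 higher and 7 lower. Tgfb1, the main ligand of immune cells, fell from 2077, 2021 and 1917 to 755, 679 and 563. Tgfbr3, the co-receptor betaglycan, rose from 40, 11 and 17 to 830, 786 and 762, and Inhbb, an activin subunit, from 1, 4 and 13 to 379, 370 and 302. The difference of Inhbb of 6.07 ran from 5.38 without tumour replicate 1 to 6.79 without tumour replicate 3.

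Insulin-like growth factor (IGF) binding proteins hold these ligands in the matrix and outside it, and 8 of the 11 tested binding proteins and relatives rose and 1 fell. Over the whole IGF list 11 of 16 were higher and 2 lower, and 9 and 5 with the length and GC trend removed. Igfbp5, a matrix-bound member, stood at 81, 50 and 70 in the tumours, at 3850, 4121 and 3952 in the bioink and at 32, 25 and 30 in 2D. Its difference of 5.90 ± 0.17 from the tumour and of 7.06 from 2D (adjusted p = 5.2e-09) was far beyond the spread. Igfbp3 rose from 42, 50 and 45 to 956, 1021 and 966. Igfbp2, the member that fell, went from 98, 63 and 44 to 0, 5 and 3, and its difference of -4.51 ± 0.79 was -3.75 without bioink replicate 1. The ligand Igf1 fell from 141, 179 and 208 to 82, 58 and 67 (-1.33 ± 0.25), and Igf2 overlapped between the groups, at 1207, 1553 and 1333 against 1701, 1282 and 1522 (0.14 ± 0.13, adjusted p = 0.392, though called at 0.40 with totals made equal). The receptor gene Igf1r was slightly higher (0.41 ± 0.05), and lower with the length and GC trend removed (-0.31, adjusted p = 0.00211).

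Among other growth factor systems, the FGF group had 11 of 15 genes higher and 2 lower (11 and none with the length and GC trend removed), with Fgf7, a mesenchymal ligand, rising from 5, 10 and 10 to 148, 97 and 106 and the receptor gene Fgfr1 by 1.06 ± 0.09. In the EGF family 6 of 11 were higher and 2 lower. Ereg, epiregulin, stood at 0, 11 and 2 in the tumours and at 1611, 1392 and 1395 in the bioink, against 25, 42 and 44 in 2D. Its difference from the tumour of 8.79 ran from 7.93 without tumour replicate 1 to 9.72 without tumour replicate 2. The receptor gene Egfr rose from 9, 28 and 26 to 180, 170 and 217, and Erbb2 fell from 917, 758 and 793 to 380, 602 and 495. Wnt genes were higher in 12 of 31 and lower in 5, including the ligand Wnt11 and the Wnt-cutting enzyme Notum, whose bioink values were 55, 51 and 51 and 118, 94 and 92 and whose tumour values were 10 or less. Wnt11, at 4.30, ran from 3.58 without tumour replicate 3 to 5.24 without tumour replicate 2, and Notum, at 4.12, was 3.35 without tumour replicate 3. In the Notch group 3 of 17 were higher and 8 lower, with the receptor Notch3 rising from 91, 45 and 49 to 237, 183 and 131 and the ligand Dll3 falling from 146, 142 and 101 to 6, 32 and 18 (-2.98, and -2.36 without bioink replicate 1). The median of the Notch group, -0.24, turned to 0.08 under quantile normalization and 0.02 with equal totals, and stayed negative under the other scalings. Imprinted genes, many of them growth regulators, were higher in 11 of 16 and lower in 1. Their largest rise was that of Dcn, which the proteoglycan and fibroblast lists count too. The growth inhibitor Grb10 rose from 25, 28 and 5 to 544, 479 and 365, and its difference of 4.79 was 4.06 without tumour replicate 3.

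In cytokine signalling through gp130 the counts differed between receptors and targets, without a test of that difference. Interleukin 6 family ligands bind gp130 with partner receptors and activate Stat3, whose target Socs3 feeds back on it. In this list 4 of 5 receptors were higher, with Lifr rising from 202, 327 and 339 to 1422, 1385 and 1345, while 6 of 8 targets and regulators were lower. Socs3 fell from 10648, 10001 and 9728 to 1650, 1987 and 1856 (-2.47 ± 0.08) and Stat3 from 9312, 9324 and 9092 to 4806, 4848 and 4722. Osm, oncostatin M of phagocytes, fell from 1959, 1923 and 1649 to 0, 11 and 8, and its difference of -8.59 ran from -7.47 without bioink replicate 1 to -9.26 without replicate 2. Il11, a ligand of stromal cells, rose from 33, 35 and 71 to 326, 306 and 323. Il6 overlapped between the groups, at 63, 11 and 35 against 69, 23 and 54, and was at 0, 3 and 0 in 2D. Its difference of 0.58, which did not pass the test, turned to -0.09 without tumour replicate 2. Lcn2, which is also a Stat3 target, was 1 of the 2 targets that rose.

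Inhibitors of NF-kB, the factor of inflammatory gene expression, are in part its own targets, and 9 of 10 were lower. Nfkbia fell from 14290, 14912 and 14297 to 4032, 4343 and 4209 (-1.79 ± 0.05) and Tnfaip3 from 13545, 13375 and 13397 to 4900, 4832 and 4871 (-1.46 ± 0.05). The 2D values were lower, at 656, 609 and 664 and at 206, 256 and 252. Nfkbid, an atypical inhibitor, fell from 797, 943 and 899 to 5, 2 and 1. Cyld, a deubiquitinase that restrains the pathway, rose from 54, 56 and 42 to 343, 185 and 227. In the prostaglandin and leukotriene list 4 of 18 were higher and 8 lower. The cyclo-oxygenases differed, with Ptgs1 falling from 622, 576 and 642 to 234, 133 and 207 and Ptgs2, the inducible form, at 2071, 1890 and 1894 against 2920, 2181 and 2400 (0.35 ± 0.11, adjusted p = 0.0262). The call of Ptgs2 was lost without bioink replicate 3, without tumour replicate 2 or 3, with eBayes fitted without a trend and in the model of all 9 libraries (adjusted p = 0.112). The difference turned to -0.43 (adjusted p = 0.00374) with the length and GC trend removed. Ptges, which makes prostaglandin E2, rose from 36, 24 and 11 to 719, 524 and 611. Pla2g7, an enzyme of macrophages, fell from 4009, 3676 and 3854 to 274, 304 and 306. Of 19 feedback inhibitors of the MAP kinase cascade 11 were lower and 2 higher, with the phosphatase genes Dusp5 falling by 1.54 and Dusp4 rising from 744, 971 and 893 to 2239, 2802 and 2797.

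Targets of 2 ligand-activated transcription factors were mostly higher. The aryl hydrocarbon receptor senses planar aromatic compounds and tryptophan products, and 8 of 11 genes of the receptor and its targets were higher and 2 lower. Cyp1a1 stood at 0, 0 and 1 in the tumours and 129, 105 and 124 in the bioink, and Cyp1b1 at 3, 3 and 0 against 744, 730 and 835. The difference of Cyp1b1 of 8.25 was 7.59 without tumour replicate 3. Tiparp, a repressor of the receptor and its target, rose from 619, 685 and 734 to 6325, 5868 and 6189 (3.17 ± 0.08), and Ahr itself from 398, 332 and 440 to 1027, 1013 and 1081. Tiparp and Ahr were near or below the tumour in 2D, at 764, 842 and 721 and at 241, 198 and 251. Of 15 genes known to be induced by glucocorticoids 10 were higher and 3 lower, and of 4 receptor and enzyme genes of the same list 3 were higher and none lower. The induced genes that rose include Tsc22d3 (667, 579 and 548 against 1210, 1075 and 1095) and Fkbp5 (335, 433 and 381 against 691, 983 and 906). The largest rise among them was that of Lcn2 (6.05), which the Stat3 and iron lists count too. Hsd11b1, which reactivates cortisone in the cell, rose from 0, 1 and 3 to 180, 101 and 109 and was at 1 in each 2D library. Among the induced genes that fell, Mertk, a receptor of macrophages that clears dying cells, went from 630, 526 and 573 to 187, 127 and 194.

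Clock genes drive daily rhythms, with Clock and Arntl activating the Per, Cry and Nr1d1 repressors. Of 20 tested, 10 were higher and 2 lower, and 7 were higher and 2 lower with the length and GC trend removed. Nr1d1, the repressor REV-ERB alpha, stood at 368, 411 and 397 in the tumours, 1458, 1294 and 1334 in the bioink and 217, 210 and 175 in 2D. Rora, which acts on the same elements as an activator, rose from 451, 479 and 488 to 2579, 2345 and 2350 (2.36 ± 0.08). Klf9, an output of both clock and steroid signals, rose from 428, 513 and 426 to 2795, 2166 and 2356. Per3 rose by 1.46 ± 0.25 and Clock by 1.31 ± 0.14, though Clock was not called with the trend removed (0.27, adjusted p = 0.105). Per1 was lower (-0.49 ± 0.08, and not called at -0.20 under quantile normalization). Dbp overlapped, at 117, 266 and 87 against 273, 148 and 184, and was called higher only without tumour replicate 2 (0.95, adjusted p = 0.0428) among the alternatives run. Nfil3, a repressor of clock output, fell from 3883, 4334 and 4235 to 1345, 1640 and 1582. The labels used here give no time of day, so its part was not tested.

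Cholesterol synthesis was higher along most of the pathway. It is known to be driven by SREBP2, which is held in the endoplasmic reticulum by Insig proteins when sterol is abundant and which binds sterol elements. Of 22 genes 17 were higher and 1 lower, with a median of 1.61, and 19 were higher and 1 lower once the length and GC trend was removed. Hmgcs1, which makes the precursor of mevalonate, rose from 278, 322 and 304 to 2885, 2426 and 2575 (3.12 ± 0.10), and Insig1 from 760, 706 and 712 to 3734, 3060 and 3205. The steroid carrier Stard4 rose by 3.01 ± 0.16, and Ebp, a sterol isomerase, fell from 670, 757 and 827 to 270, 433 and 330. The sterol element, searched as CACNCCAC on both strands, lay within 250 bases before a start of 6.70% of all genes with a window and of 3 of the 15 such genes of this list. The matches of Hmgcs1 and Insig1 are shown because these genes lie at the start of the pathway and at its sensor.
Hmgcs1: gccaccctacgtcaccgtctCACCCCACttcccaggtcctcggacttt
Insig1: ggcgcggtacgtgtagtgtcGTGGCGTGt
These RefSeq stretches lie on the plus strand of GRCm38.p6 at chr13:119690195-119690242 for Hmgcs1 and at chr5:28071383-28071411 for Insig1, and capitals mark the match.

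Fatty acid genes were more often higher in the synthesis list and more often lower in the oxidation list, without a test of that difference. In fatty acid and phospholipid synthesis 12 of 27 were higher and 4 lower, and 16 and 5 with the length and GC trend removed. Scd1, the desaturase, rose from 2320, 2332 and 2129 to 11153, 10576 and 10682, with 12063, 11512 and 11508 in 2D, and Acsl3, which activates fatty acids, from 482, 424 and 510 to 4094, 4362 and 4502 (3.19 ± 0.09). In fatty acid oxidation 3 of 23 were higher and 11 lower, which became 5 and 6 with the trend removed. Under the other scalings 3 to 4 were higher and 5 to 9 lower.

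Iron and zinc genes were mostly higher. In the iron list 12 of 20 were higher, Lcn2 among them, and 3 lower, and 8 and 4 with the length and GC trend removed. Tfrc, the transferrin receptor, rose from 366, 433 and 444 to 2932, 2598 and 2674, Cp, the ferroxidase ceruloplasmin, from 2614, 2423 and 2638 to 11721, 10778 and 11628, and Steap4, a ferrireductase, from 0, 0 and 5 to 248, 259 and 281. The difference of Steap4 was 7.18, and 8.04 without tumour replicate 3. Fth1, the ferritin heavy chain, fell from 22228, 22421 and 22733 to 11078, 9921 and 10478. Slc11a1, the metal transporter of phagosomes, fell from 1175, 1254 and 1045 to 0, 19 and 5. Its difference of -7.87 became -6.72 without bioink replicate 1 and -8.88 without replicate 2. Of 9 zinc genes 5 were higher and none lower (4 and 1 with the trend removed), with the exporter Slc30a4 rising from 515, 505 and 483 to 4113, 3538 and 3572 and the metallothionein Mt1 from 1970, 2035 and 1735 to 5919, 4045 and 4840. Of 27 NRF2 targets and redox genes 6 were higher and 15 lower, which became 9 and 9 with the trend removed, where the median of -0.34 turned to 0.11. Under the other scalings 6 to 8 were higher and 7 to 10 lower, and the median stayed negative, at -0.07 with equal totals. Gclc, which limits glutathione synthesis, rose by 1.83 ± 0.13 and the cystine importer Slc7a11 by 1.56 ± 0.11, while the peroxide-removing genes Gpx1 and Prdx5 were lower (-1.36 ± 0.15 and -2.04 ± 0.13).

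**Figure D5:**
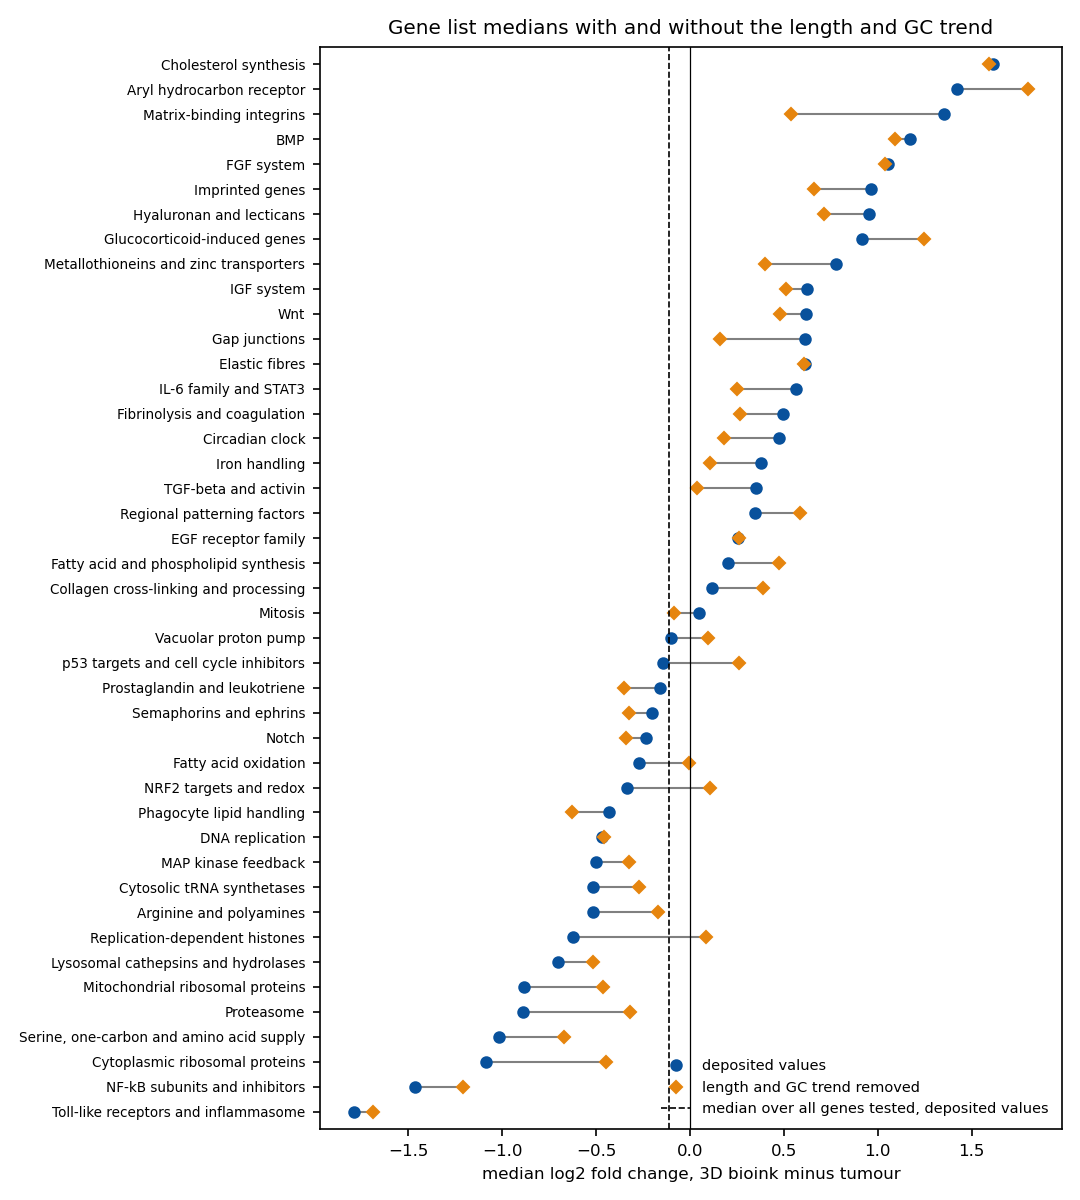
Median log2 fold change of 3D bioink minus tumour (horizontal axis) for gene lists with a median between -2 and 2, from the deposited values (circles) and after the length and GC trend was removed (diamonds). The ribosomal lists move toward the dashed median of all genes, from -1.09 to -0.45 and from -0.88 to -0.46, and the histone list from -0.63 to 0.08, while cholesterol synthesis and BMP stay in place.

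Genes of growth machinery were mostly lower, and their counts moved when the length and GC trend was removed. Of 76 cytoplasmic ribosomal proteins 70 were lower and none higher, with a median of -1.09 at a median transcript length of 942 bases. With the trend removed 43 were lower and 4 higher, and the median was -0.45. Rplp0 fell from 78424, 85168 and 83024 to 21906, 28832 and 26399 and Rplp1 from 30017, 31063 and 30631 to 7510, 9676 and 8688. Of 44 mitochondrial ribosomal proteins 38 were lower and none higher, and 24 were lower and none higher with the trend removed. Of 34 proteasome genes 28 were lower and 1 higher, and 22 and 1 with the trend removed. Within that list, which leaves out Psmb9 (-4.51), the largest falls were those of the interferon-inducible activator genes Psme1 and Psme2. Psme1 fell from 18316, 21233 and 22419 to 1370, 2023 and 1880, and Psme2 from 7342, 7499 and 7087 to 1106, 1078 and 1049. Histone genes of the S phase lost their common direction: 15 of 23 were lower and none higher as deposited, and 4 were lower and 4 higher with the trend removed. Under the other scalings 9 to 15 were lower and none higher. Histone and ribosomal protein genes have near-identical copies, so the split of reads among them is uncertain. The plot of list medians with and without the trend shows these shifts.

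Amino acid supply and DNA replication kept their direction under that change. Of 25 genes of serine, one-carbon and amino acid supply 18 were lower and 2 higher, and 17 and 1 with the trend removed. Phgdh, the first enzyme of serine synthesis, fell from 4871, 4470 and 4577 to 1546, 1747 and 1651, and was at 7716, 7505 and 7652 in 2D. Slc38a2, a transporter of neutral amino acids, rose from 5278, 4772 and 5018 to 8353, 7122 and 7567, and its call was lost with the trend removed. Of 20 cytosolic tRNA synthetases 12 were lower and 3 higher, with Wars, which interferon induces, falling from 5130, 5687 and 5573 to 1197, 1093 and 1054. Of 35 DNA replication genes 22 were lower and 3 higher, and 16 and 1 with the trend removed. Under the other scalings 15 to 20 were lower and 5 to 6 higher. The helicase subunit gene Mcm2 fell from 3216, 3369 and 3145 to 1274, 1406 and 1472, and Cdt1, which licenses origins, from 1385, 1452 and 1470 to 601, 505 and 441. Mitosis genes had no common direction, with 9 of 26 higher and 10 lower, and 7 and 5 with the trend removed, where the median of 0.05 turned to -0.09. Under the other scalings 9 to 12 were higher and 5 to 8 lower. Cdc20 fell from 2503, 2423 and 2274 to 1162, 1197 and 1230, and Top2a rose from 1709, 1797 and 1751 to 3819, 4138 and 4219. Of 23 p53 targets and cell cycle inhibitors 9 were higher and 8 lower, and 9 and 6 with the trend removed, where the median of -0.14 turned to 0.26. That median also turned under quantile normalization (0.05), with equal upper quartiles (0.02) and with equal totals (0.12). Cdkn1a, the inhibitor p21, was at 3005, 3033 and 2630 against 2452, 2398 and 2593, a difference of -0.22 ± 0.08 (adjusted p = 0.0373). That call was lost in 5 of the 6 fits that left out a library, and its sign turned under quantile normalization (0.015), with totals made equal (0.045) and with the trend removed (0.26).

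For single genes, removing the length and GC trend also moved some differences by over 1.5 times without ending a call. Among the rises it left smaller were Bmpr2 (0.85), Vcan (0.96), Has2 (1.36), Fbn1 (1.34), Itgav (0.50), Egfr (2.31), Ereg (8.03), Lox (8.06), Lifr (1.36), Cyld (1.33), Rora (1.32), Tiparp (2.46), Tfrc (1.86), Cp (1.43), Slc30a4 (2.03), Slc7a2 (1.59), Slc7a11 (0.52), Stard4 (2.34) and Top2a (0.49). Rises it left larger were those of Lcn2 (6.79), Id1 (3.40), Id3 (1.87) and Mt1 (2.04), and the falls of Igf1 and Tnr deepened to -2.40 and -7.73. The differences of Fcer1g and H2-Aa, both near 0 in the bioink, became -10.33 and -10.88. Falls it left smaller were those of Psme1 (-2.87), Psme2 (-2.04), Psmb9 (-3.88), Isg15 (-1.58), Plaur (-1.42), Rplp0 (-1.05), Rplp1 (-0.86), Gpx1 (-0.67), Prdx5 (-1.45) and Fth1 (-0.50).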

How the data were processed

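RNA-seq libraries of whole GL261 tumours and of 3D bioink and 2D penta-cultures (3 each) were analysed from the table of gene values that the authors deposited. Its values are a score: normalized counts rounded to whole numbers, as their whole-number form and the submitters' processing notes show. Those notes name kallisto, RSEM, DESeq and DESeq2 1.24.0 and the mm10 build, without role or order, and how strand was counted is not given in the sources used here. Per the labels' protocols, 25 to 75 ng of RNA went through a directional kit with 14 PCR cycles. Depth is unknown, so no count model and no counting interval was used. Genes averaging 10 or more across the 6 libraries entered the test, on log2(value + 1), with limma 3.58.1 in R 4.3.3 (lmFit and eBayes with a trend, two-sided, Benjamini-Hochberg, threshold 0.05). A pseudocount of 1 understates differences of low genes. Bioink against 2D was a contrast in a model of all 9 libraries. The script was tested on simulated data. The alternatives were pseudocounts of 0.5 and 5, no filter or a mean of at least 50, other scalings, arrayWeights, leaving out each library, a replicate block and, added later, removal of the length and GC trend (natural splines with 4 degrees of freedom, per library). Promoters are RefSeq windows (GRCm38.p6).

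The members and gene lists were chosen with earlier results of these data known. Named were the 10 largest rises and falls among called genes whose groups do not overlap and whose mean is at least 100 in both groups, the 5 highest genes each way among those at 0 in one group and at 100 or more in each library of the other, and, in each list, the 2 called members with the largest difference in the majority direction and the largest the other way. A fixed set was added: Fcer1g, Tyrobp, Plat, Plau, Plaur, F3, Fn1, Igf1, Igf2, H19 (not analysed here), Per1, Dbp, Nr1d1, Fkbp5, Tsc22d3, Hmgcs1, Arg1, Nos2, Cdkn1a and Cdkn2a. Some genes the rule picks are not reported here.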

Additional observations from a re-analysis of the deposited data

Results flagged for a closer look

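Among the 250 genes named here or picked by the naming rule, 24 differed from the tumour in opposite directions in the 2 cultures, and bioink and 2D, which share the tumour libraries as reference, were tested against each other directly. Opposite directions fix the sign of bioink minus 2D, so that sign is no separate evidence and the values below give its size. Over all genes tested in both contrasts, of which there were at most 13773, 1138 had opposite directions and were also called between the cultures. Of these 1138, 367 were higher in the bioink. The share among the named genes was near the share over all genes. The log2 difference of bioink minus 2D was positive for Lcn2 (9.05), Krt18 (7.15), Igfbp5 (7.06), Krt8 (5.57), Cp (5.39), Ptgs2 (4.94), Ace (4.63), Bmp2 (3.98), Serpine2 (3.46), Gja4 (3.14), Slc7a2 (2.98), Nr1d1 (2.76), Rora (2.71), Ahr (2.18), Slc7a11 (1.99), Itga5 (1.64) and Slc38a2 (1.43), which were higher than the tumour in the bioink and lower in 2D. It was negative for Phgdh (-2.21), Plk1 (-1.94), Cdc20 (-1.86), Hist1h3c (-1.70), Hist1h2be (-1.69), Mcm2 (-1.66) and F3 (-1.12), which were lower than the tumour in the bioink and higher in 2D. Gja4, a connexin of arterial endothelium, was low throughout, at 8 to 13 in the tumours, 20 to 58 in the bioink and 2 to 5 in 2D, and its call against the tumour was lost in 5 of the 6 fits that left out a library. The calls of Plk1, Hist1h3c and Slc38a2 against the tumour were lost when the length and GC trend was removed. The call of F3 was lost under quantile normalization. The call of Ptgs2 was lost in 3 of the 6 fits that left out a library, with eBayes fitted without a trend and in the model of all 9 libraries (adjusted p = 0.112), which also gives the test of bioink against 2D. With the length and GC trend removed Ptgs2 was called lower than the tumour in the bioink (-0.43), so its place among genes higher than the tumour does not hold there.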

How the results depend on the processing

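The totals of called genes stayed within 1.5 times of the main value under every alternative run. Called genes ranged from 7299 (without bioink replicate 3) to 8250 (without bioink replicate 1) when a library was left out, genes called higher from 2845 to 3329 and genes called lower from 4373 to 4921, and at least 2-fold calls from 3781 to 3913. For bioink against 2D, the range was 7302 to 8024. Scaling moved the balance: higher calls made up 41.7% as deposited, 51.2% under quantile normalization, 50.7% with equal upper quartiles, 48.1% by median of ratios and 56.1% with equal totals, and the median over all genes moved from -0.11 to 0.039, 0.049, 0.0022 and 0.15. With the length and GC trend removed, 6883 genes were called (2818 at least 2-fold) and 37.8% were higher. Samples share replicate numbers across groups, but same-numbered deviations correlated at only 0.025, 0.048 and 0.074, although each was the highest of its row. A replicate block called 8127 genes. Signs turned for Cdkn1a (0.015 under quantile normalization, 0.045 with equal totals, 0.26 with the trend removed), Fn1 (0.10 under quantile normalization, 0.029 with equal totals), Pecam1 (0.13 and 0.070 under the same 2 scalings), Gnas (0.065 under quantile normalization), Il6 (-0.086 without tumour replicate 2, and up to 1.12 without replicate 1) and, with the trend removed, Pola1 (-0.13), Igf1r (-0.31) and Ptgs2 (-0.43). With arrayWeights, Fermt3 (-6.44), Osm (-7.76), Cxcl9 (-6.11), H2-Ob (-4.97), H2-Aa (-12.21) and Tnr (-7.68) moved by over 1.5 times and stayed called. The pseudocount set the size of differences of genes near 0 in one group: with 5 in place of 1, 66 of the 250 named genes moved by over 1.5 times (up to 4.98 times), among them Lox (7.65), Cyp1b1 (6.82) and Itgax (-8.69), and with 0.5, 26 did. All 250 kept their direction and their side of the threshold under both. The cause was not tested. Unknown depth leaves the error of genes near 0 undetermined.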
